A study of Homo sapiens with 6 samples.

Results

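RNA sequencing of SK-OV3, an established line of human ovarian carcinoma cells, was examined for the aryl hydrocarbon receptor AHR, its repressor AHRR and 4 genes that the receptor is known to induce, TIPARP, CYP1A1, CYP1B1 and NQO1. The 6 genes were taken by gene symbol from a table of 59653 genes. All 6 were in the table, and all 6 passed a minimum of 5 normalized counts in at least 3 libraries, as did 19008 genes in all. Cells that the labels give as wildtype were transfected with a pool of siRNAs against the lncRNA PVT1 (siPVT1, 3 libraries) or with a non-targeting pool (siControl, 3 libraries), each at 50 nM, and RNA was taken after 48 h in full serum medium. The series asks what lowering PVT1 does to gene expression in these cells. It holds 1 siRNA pool against PVT1, so that lower PVT1 and other effects of the pool cannot be told apart. No agonist of the receptor is named in the methods.

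AHR is a transcription factor of the bHLH-PAS family that waits in the cytoplasm in a complex with HSP90 and the co-chaperone PTGES3. On binding a ligand such as a dioxin, a polycyclic hydrocarbon or a tryptophan metabolite, it moves to the nucleus, pairs with ARNT and binds xenobiotic response elements. It then raises CYP1A1 and CYP1B1, cytochromes P450 that oxidize such ligands, together with AHRR and TIPARP, which both restrain the receptor. NQO1, a quinone reductase, is shared between AHR and the oxidative stress factor NRF2 (NFE2L2).

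The core of the xenobiotic response element, GCGTG, is shown here because the receptor with ARNT is known to bind it at such genes. RefSeq promoters (GRCh38.p14, 250 bases before to 50 bases after a start) were at hand for 5 of the 6 genes (not CYP1B1), in 8 entries. Read on both strands, the core was found in 6 of the 8 entries and in each of the 5 genes, with 8 matches in all. These letters are common, as 36.5% of all 35116 promoter entries hold them, and they include the CGTG that hypoxia response elements also contain. One match per gene is given, with the core in capitals and 5′ to 3′ on the strand that reads GCGTG.
AHR, chr7:17298677-17298701, plus strand, core from base 38 after the start: tctgttccgagaGCGTGccccggac
AHRR, chr5:321672-321700, plus strand, core 30 bases before the start: ggcgggcggctcGCGTGccggggtggggc
TIPARP, chr3:156674370-156674398, minus strand, core 208 bases before the start: tcccgcgaggggGCGTGtcctttctcgcg
CYP1A1, chr15:74725569-74725597, minus strand, core 57 bases before the start: ccagggaaggagGCGTGgccacacgtaca
NQO1, chr16:69726543-69726571, plus strand, core from base 2 after the start: cttgtgggagtcGCGTGtgtagtgcacgg
The longer form TNGCGTG was present in the sequences shown for AHRR and NQO1 and in 5.51% of all promoters. TGACNNNGC, a form of the antioxidant response element that NRF2 binds, was in none of the 8 windows and in 13.3% of all promoters. A match is a description of the letters in these windows, and binding was not measured. Bases outside the windows were not searched, so elements further from a start would not be seen.

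Total counts of the libraries lay between 28383171 and 32324829 in siControl and between 29564562 and 35059576 in siPVT1. Library siPVT1 replicate 3 stood apart from the other siPVT1 libraries. Its counts differed from theirs by a chi-square per degree of freedom of 46.3 and 19.96, against 8.74 between replicates 1 and 2 of siPVT1 and 1.72 to 5.70 among siControl libraries. Of the 4081 genes that differed between the groups at an adjusted p under 0.05 and at least 2-fold, replicate 3 was the siPVT1 library nearest to the siControl mean in 2429. Its PVT1 level was the lowest of the 3, with normalized counts of 2062 against 2350 and 2111 in replicates 1 and 2 of siPVT1 and 3298, 4090.5 and 3377 in siControl, and PVT1 fell 1.65-fold in the comparison (log2 fold change −0.72, standard error 0.097, edgeR adjusted p = 0.000342). Of 7 markers of ovarian carcinoma epithelium, none was at the floor of 3 counts in every library, and their summed level was 650 to 726 CPM in siControl and 898 to 1005 CPM in siPVT1. Most of that sum was KRT8 and KRT18, and the markers went different ways: 4 rose, ERBB2 fell (log2 fold change −0.43, edgeR adjusted p = 0.00106), and EPCAM and MUC16 did not pass the test. Among 6 markers of leukocytes, endothelium and stroma, PTPRC and CD3E were at the floor, and the sum of the list was 22.7 to 24.0 CPM in siControl and 39.3 to 51.2 CPM in siPVT1, with PECAM1, VWF and PDGFRB higher past both thresholds and CD68, the most abundant, not past the test. Their part in the results was not tested. In bulk RNA, fewer cells of a kind and less RNA per cell cannot be told apart.

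The 6 genes did not move as a group. NQO1 fell to 0.334 of its siControl level, TIPARP rose 1.44-fold, and AHR, AHRR, CYP1A1 and CYP1B1 did not pass the test. A gene is said here to have risen or fallen where the quasi-likelihood test of edgeR gave a p under 0.05 after Benjamini-Hochberg adjustment, and the fold threshold of 2 is named where it matters. Thus 1 of the 6 genes rose, against 29.5% of all genes tested, and 1 fell, against 28.4%. Past both thresholds was NQO1 alone, or 16.7% of the 6, against 21.5% of all genes (11.8% higher and 9.64% lower). Each gene is 16.7% of the 6, so these shares are coarse and no result about the group. The median log2 fold change of the 6 was 0.38, against 0.0014 over all genes tested. The siPVT1 and siControl libraries did not overlap in 3 of the 6 genes, TIPARP, CYP1B1 and NQO1, against 65.6% of all genes tested.

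**Figure D1:**
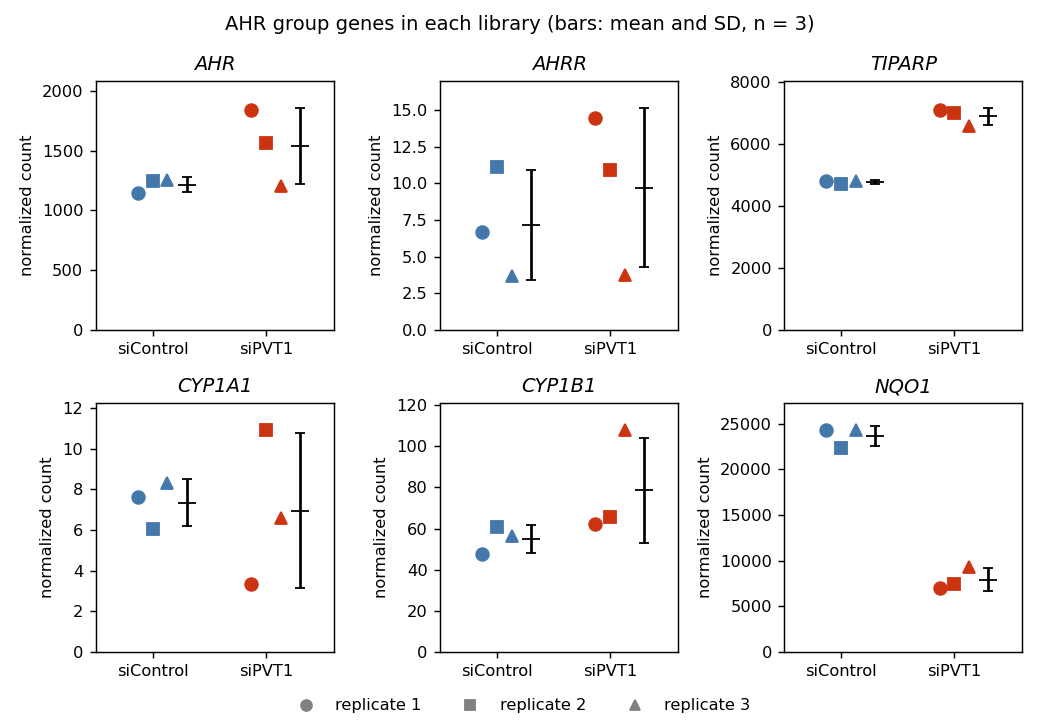
Normalized counts (linear axes from 0) of the 6 genes in each of the 3 siControl (blue) and 3 siPVT1 (red) libraries, with a marker shape for each replicate number and bars for the mean and SD. NQO1 lies between 22372 and 24318 in siControl and between 6936 and 9316 in siPVT1, TIPARP is higher in every siPVT1 library, and AHR of siPVT1 replicate 3 lies within the siControl range.

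AHR (ENSG00000106546, protein coding) spans chromosome 7 (GRCh38) from 16916359 to 17346152, plus strand. Its normalized counts were 1142, 1246 and 1255 for replicates 1 to 3 of siControl, then 1843, 1567 and 1202 for those of siPVT1. Replicates 1 and 2 of siPVT1 were above every siControl library, and replicate 3 lay among them. Mean and SD (n = 3 each) were 1214 ± 62.9 for siControl against 1537 ± 322 for siPVT1, and the log2 fold change was 0.34 (standard error 0.14, edgeR adjusted p = 0.0698). The 95% interval of the log2 fold change, not adjusted for the number of genes, ran from 0.015 to 0.66. This value rests on single libraries. Without siPVT1 replicate 3 it was 0.47 (edgeR adjusted p = 0.000454), and without siPVT1 replicate 1 it was 0.17 (edgeR adjusted p = 0.236).

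AHRR (ENSG00000063438), the repressor that competes with AHR for ARNT, lies on the plus strand of chromosome 5 from 321714 to 438291. It was near the limit of detection, with counts of 7, 11 and 4 for replicates 1 to 3 of siControl, then 13, 10 and 4 for those of siPVT1. The ranges of the groups overlapped. The log2 fold change was 0.42 (standard error 0.58, edgeR adjusted p = 0.563), with a 95% interval from −0.91 to 1.75, which leaves a 2-fold rise within it. The annotation also holds PDCD6-AHRR, a read-through gene on the same strand, so that reads can be divided between it and AHRR. In GENCODE v44, a later release than the authors used, PDCD6-AHRR shares 5561 exonic bases with AHRR, or 58.7% of the exonic bases of AHRR. PDCD6-AHRR had counts of 21, 29 and 18 in siControl and 32, 17 and 0 in siPVT1, and with both rows summed the log2 fold change of AHRR was −0.089 (edgeR adjusted p = 0.92). PDCD6, the gene upstream whose exons the read-through uses, rose 1.57-fold (log2 fold change 0.65, standard error 0.062, edgeR adjusted p = 5.61e-05).

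TIPARP (ENSG00000163659), also known as PARP7, encodes a mono-ADP-ribosyltransferase that modifies AHR and limits its activity. It lies on the plus strand of chromosome 3 from 156673235 to 156706770. Normalized counts were 4814, 4716 and 4796 for replicates 1 to 3 of siControl, then 7101, 7018 and 6577 for those of siPVT1. Every siPVT1 library was above every siControl library. Mean and SD (n = 3 each) were 4775 ± 52.2 for siControl against 6899 ± 282 for siPVT1, with a log2 fold change of 0.53 (standard error 0.056, 95% interval 0.40 to 0.66, edgeR adjusted p = 9.06e-05). TIPARP rose with each library left out in turn, with log2 fold changes between 0.49 and 0.55, and did not reach 2-fold in any of these fits. Scaling by the total count, which moved the median of all genes to −0.15, gave 0.38 (edgeR adjusted p = 0.000461). The antisense gene TIPARP-AS1, which shares 0 exonic bases with TIPARP, had 15 to 25 counts in siControl libraries and 30 to 36 in siPVT1 libraries, at a log2 fold change of 0.89 (standard error 0.28, edgeR adjusted p = 0.0259). That call was lost in 4 of the 6 fits with a library left out, those without siControl replicate 2 or 3 or siPVT1 replicate 1 or 2, and in DESeq2.

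CYP1A1 (ENSG00000140465), the enzyme most widely read as a sign of AHR activity, lies on the minus strand of chromosome 15 from 74719542 to 74725536. Its counts were 8, 6 and 9 for replicates 1 to 3 of siControl, then 3, 10 and 7 for those of siPVT1, with the total counts given above. The siPVT1 libraries held both the lowest and the highest value. The log2 fold change was −0.080 (standard error 0.47, edgeR adjusted p = 0.896) with a 95% interval from −1.16 to 0.996. A difference was therefore not detectable at this depth, and the interval covers a fall of 2-fold. Its neighbour and paralog CYP1A2 had at most 1 count in any library and was not tested.

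CYP1B1 (ENSG00000138061), a cytochrome P450 of tissues outside the liver, lies on the minus strand of chromosome 2 from 38066973 to 38109902. Normalized counts were 47.6, 60.6 and 56.3 for replicates 1 to 3 of siControl, then 62.4, 65.6 and 108 for those of siPVT1. All siPVT1 libraries were above all siControl libraries, replicate 1 of siPVT1 only just above replicate 2 of siControl. The log2 fold change was 0.53 (standard error 0.25, 95% interval −0.037 to 1.09, edgeR adjusted p = 0.0986). Much of its size came from siPVT1 replicate 3, without which it was 0.20 (edgeR adjusted p = 0.39). The antisense gene CYP1B1-AS1 shares 678 exonic bases with CYP1B1 and had between 1 and 5 counts per library. Of 6 listed neighbours that overlap or adjoin the genes, 4 were tested, and 2 (PDCD6 and TIPARP-AS1) rose, 0 fell and 2 did not pass. Among all genes tested, 29.5% rose and 28.4% fell.

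NQO1 (ENSG00000181019), which reduces quinones by transfer of 2 electrons, lies on the minus strand of chromosome 16 from 69706996 to 69726668. Normalized counts were 24318, 22372 and 24259 for replicates 1 to 3 of siControl, then 6936, 7465 and 9316 for those of siPVT1. The lowest siControl library was more than 2-fold above the highest siPVT1 library. The siControl mean of 23649 ± 1107 (SD, n = 3) compared with 7906 ± 1250 (SD, n = 3) for siPVT1, at a log2 fold change of −1.58 (standard error 0.11, 95% interval −1.83 to −1.33, edgeR adjusted p = 1.12e-05). Without siPVT1 replicate 3, the siPVT1 library with the most NQO1, it was −1.73 (edgeR adjusted p = 1.24e-08), and over all 6 fits without 1 library it lay between −1.73 and −1.51. NQO2, the paralog of NQO1, did not pass the test (log2 fold change 0.089, standard error 0.097, edgeR adjusted p = 0.461).

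**Figure D2:**
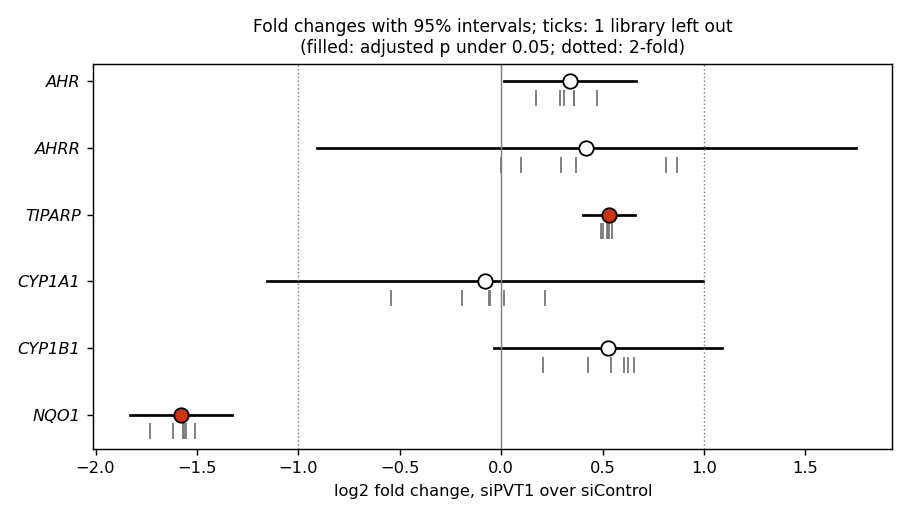
Log2 fold change of siPVT1 over siControl for the 6 genes (points) with the 95% interval (lines) and the value with each library left out in turn (grey ticks). The intervals of NQO1 (−1.83 to −1.33) and TIPARP (0.40 to 0.66) are narrow, and those of AHRR and CYP1A1, each with few counts, span more than 2 log2 units.

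Levels of different genes were compared as normalized counts per kb of the canonical GENCODE v44 transcript, scaled to library size (RPKM scale). On this scale the order in siControl was NQO1 (301 ± 14.1), TIPARP (39.7 ± 0.43), AHR (6.25 ± 0.32), CYP1B1 (0.338 ± 0.041), CYP1A1 (0.0905 ± 0.014) and AHRR (0.0406 ± 0.021), each a mean with its SD over 3 libraries. The order of the means was the same in siPVT1, at 101 ± 15.9, 57.4 ± 2.34, 7.91 ± 1.66, 0.484 ± 0.157, 0.0857 ± 0.047 and 0.0552 ± 0.031. No neighbours in this order overlapped in siControl, and in siPVT1 the libraries of CYP1A1 and AHRR did. The place of AHRR depends on how reads were divided with PDCD6-AHRR, since both rows together had a mean of 29.1 normalized counts in siControl against 7.16 for AHRR alone. The receptor transcript was thus readily detected at this depth. Transcripts of CYP1A1, CYP1B1 and the repressor AHRR were far lower, with AHR at 17.2 to 20.04 times the per-length level of CYP1B1 in siControl. The per-length level of NQO1 was 7.27 to 7.75 times that of TIPARP in the siControl libraries and 1.496 to 2.17 times in the siPVT1 libraries. AHR was at 0.73 to 0.86 times the level of ARNT in siControl and at 0.56 to 0.72 times in siPVT1.

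**Figure D3:**
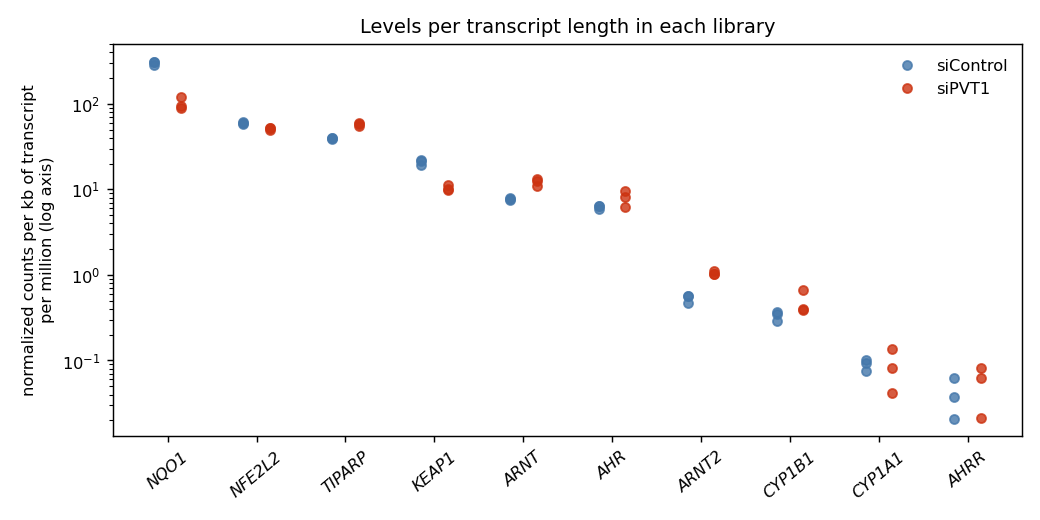
Normalized counts per kb of transcript, scaled to library size (log axis) in each siControl (blue) and siPVT1 (red) library for the 6 genes and for ARNT, ARNT2, NFE2L2 and KEAP1, ordered by siControl mean. AHR (6.25 in siControl) lies close to ARNT (7.74), while CYP1B1, CYP1A1 and AHRR lie below 1.

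The genes of the receptor complex moved in different directions. Of 11 genes for its partners, chaperones and coactivators, 5 rose, 3 fell and 3 did not pass the test, with a median log2 fold change of −0.030. Over all genes tested, 29.5% rose and 28.4% fell. ARNT, the obligate partner of AHR, had normalized counts of 1178, 1091 and 1137 in siControl and 1931, 1839 and 1623 in siPVT1. It rose 1.58-fold (log2 fold change 0.66, standard error 0.080, edgeR adjusted p = 0.000197). ARNT2, its paralog with a lower level, rose 1.98-fold (log2 fold change 0.98, standard error 0.11, edgeR adjusted p = 0.000163). The coactivators NCOA3 and EP300 rose by 0.27 and 0.22 on the log2 scale, and neither passed the test when libraries were scaled by the total count, nor did NCOA3 without siPVT1 replicate 2. Past both thresholds, 0 genes were higher and 2 were lower, or 18.2% of the 11 against 21.5% of all genes tested. HSP90AB1, the constitutive form of HSP90, had 61966 ± 2021 normalized counts in siControl against 30414 ± 4564 (SD, n = 3 in each group) and its log2 fold change was −1.03 (edgeR adjusted p = 6.77e-05). CREBBP, a histone acetyltransferase, had a log2 fold change of −1.001 (standard error 0.083, edgeR adjusted p = 2.77e-05). Both lie at the edge of the 2-fold threshold. Neither reached it without siPVT1 replicate 1, nor did HSP90AB1 without siPVT1 replicate 2 or CREBBP without siControl replicate 2. HSP90AA1, the most abundant gene of the list, had a log2 fold change of −0.35 (edgeR adjusted p = 0.0468), and this call was lost in 5 of the 6 fits without 1 library, all but that without siPVT1 replicate 3. HSP90 genes have many near-identical pseudogenes, so their counts are uncertain.

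Other genes reported to respond to AHR ligands went both ways as well. Of 20 listed, 16 were tested, and 5 rose, 5 fell and 6 did not pass, with a median log2 fold change of −0.12. The shares over all genes tested were 29.5% for a rise and 28.4% for a fall. CYP1A2, UGT1A1, UGT1A6 and GSTA2, classical targets in liver, were under the count minimum. NFE2L2 and SLC7A5, both among the 5 that fell, are counted again below, with the NRF2 battery and the tryptophan pathway respectively. Past both thresholds were 9 of the 16 (56.25%), 5 higher and 4 lower, against 21.5% of all genes tested. The list was written with earlier results of these libraries known, so this share is not independent evidence. CYP2S1, a P450 that dioxin induces, rose 3.84-fold, from 110, 104 and 99.8 normalized counts in siControl to 490, 405 and 312 in siPVT1 (log2 fold change 1.94, standard error 0.17, edgeR adjusted p = 3.61e-05). The inflammatory genes PTGS2, IL6 and IL1B, which many other pathways also control, had log2 fold changes of 4.20, 2.91 and 2.81, with IL1B the most abundant of the 16 over all libraries and SLC7A5 in siControl alone. SERPINB2 rose by 1.08 on the log2 scale and did not reach 2-fold without siControl replicate 2, without siPVT1 replicate 3 or with scaling by the total count. SLC7A5, an importer of tryptophan and kynurenine, fell 4.06-fold, from 25583 ± 154 to 6294 ± 1210 normalized counts (SD over 3 libraries, log2 fold change −2.02, standard error 0.13, edgeR adjusted p = 7.61e-06). The estrogen-producing CYP19A1, the growth factor EREG and the efflux pump ABCG2 had log2 fold changes of −2.91, −1.37 and −1.08. CYP19A1 passed the count minimum only through siControl, where it was higher, so neither its fall nor its place among the 9 is independent of that minimum. ABCG2 did not reach 2-fold without siControl replicate 3 or without siPVT1 replicate 1.

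Set beside NQO1 are genes of the NRF2 battery, to which it also belongs, together with the regulators NFE2L2 and KEAP1. Their fall was already known from earlier results of these libraries, so the direction of the list is not independent evidence. Of 15 genes tested, 0 rose, 13 fell and 2 did not pass, with a median log2 fold change of −1.17. By the same test, 29.5% of all genes tested rose and 28.4% fell. Past both thresholds, 9 fell, or 60% of the 15 against 9.64% of all genes tested. NFE2L2 and KEAP1, which control the battery, are counted among the 13, and KEAP1 also among the 9. TALDO1, also among the 13, had a log2 fold change of −0.25 (edgeR adjusted p = 0.0256). Its call was lost in 3 of the 6 fits without 1 library. The cystine importer SLC7A11, the NRF2-induced OSGIN1, the sulfiredoxin SRXN1 and the heme oxygenase HMOX1 had log2 fold changes of −3.29, −3.10, −2.59 and −2.39. TXNRD1, the thioredoxin reductase and the most abundant of the list, fell 3.10-fold (log2 fold change −1.63, standard error 0.14, edgeR adjusted p = 2.78e-05), close to the 2.99-fold of NQO1. NFE2L2 itself fell from a mean of 4558 ± 126 to 3901 ± 87.1 (normalized counts, SD, n = 3), with a log2 fold change of −0.22 (standard error 0.055, edgeR adjusted p = 0.00785). KEAP1, the adaptor that targets NRF2 for degradation, fell to 0.50 of its siControl level (log2 fold change −1.001, standard error 0.082, edgeR adjusted p = 2.64e-05), at the edge of the 2-fold threshold, which it missed without siControl replicate 1 or 3 or siPVT1 replicate 1 or 2. In 6 of the 9 genes past both thresholds, siPVT1 replicate 3 lay nearest to the siControl mean, as it did for NQO1 and for 2429 of the 4081 genes past both thresholds over the whole table.

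Enzymes and importers of the tryptophan pathway supply or remove endogenous AHR ligands. Of 14 listed, 10 were tested, and 4 rose, 4 fell and 2 did not pass, where 29.5% of all genes tested rose and 28.4% fell, with a median log2 fold change of 0.061. IL4I1, a secreted oxidase that makes AHR ligands from tryptophan, had normalized counts of 72.4, 59.6 and 81.3 in siControl and 543, 504 and 454 in siPVT1. It rose 7.01-fold (log2 fold change 2.81, standard error 0.13, edgeR adjusted p = 2.19e-06). QPRT, which uses quinolinate for NAD synthesis, rose 2.61-fold (log2 fold change 1.38, standard error 0.072, edgeR adjusted p = 3.07e-06). KYNU, the kynureninase, fell 2.40-fold (log2 fold change −1.26, standard error 0.086, edgeR adjusted p = 1.07e-05), and TDO2, which opens the tryptophan ring, had a log2 fold change of −1.23 with 31.6 and 13.3 normalized counts. SLC3A2, the heavy chain that pairs with SLC7A5, fell 3.80-fold (log2 fold change −1.93, standard error 0.083, edgeR adjusted p = 1.52e-06). SLC36A4, among the 4 that rose, had a log2 fold change of 0.23 (edgeR adjusted p = 0.0228). Its call was lost in 3 of the 6 fits without 1 library, with scaling by the total count, without a filter and with the replicate block. IDO1, the interferon-inducible enzyme of the same step as TDO2, was under the minimum, with counts of 0, 1 and 0 in siControl and 8, 11 and 4 in siPVT1.

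Of 8 other bHLH-PAS genes whose proteins can pair with ARNT, 7 were tested, and 2 rose, 4 fell and 1 did not pass. Shares over all genes tested were 29.5% for a rise and 28.4% for a fall. HIF3A and NPAS1 passed both thresholds, or 28.6% of the 7 against 21.5% of all genes tested. Each met the count minimum only through the group where it was higher, so this share is not independent of that minimum. HIF1A, the most abundant, had a log2 fold change of 0.26 (standard error 0.060, edgeR adjusted p = 0.006), which did not pass with scaling by the total count. EPAS1 had a log2 fold change of −0.35 (edgeR adjusted p = 0.0291). That call was lost in 4 of the 6 fits without 1 library, those without any single siControl library or without siPVT1 replicate 2. SIM2 and NPAS3 had log2 fold changes of −0.22 and −0.90 (edgeR adjusted p = 0.0258 and 0.0466). Their calls were lost in 3 and 5 of these 6 fits. NPAS3 also lost its call in DESeq2, without a filter and with the replicate block. HIF3A, a hypoxia-induced member of the family, had 5.71, 2.02 and 7.39 normalized counts in siControl and 340, 261 and 137 in siPVT1, with a log2 fold change of 5.55 (standard error 0.48, edgeR adjusted p = 3.35e-05), and passed the count minimum only through siPVT1. NPAS1, 1 of the 4 that fell, had 8, 8 and 13 counts in siControl and 3, 2 and 2 in siPVT1. It passed the minimum only through siControl, a way that favours a lower level in siPVT1, so it is no support for that count, and it did not pass the test in DESeq2.

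Among 7 relatives of TIPARP in the mono-ADP-ribosyltransferase family, 6 were tested, and 3 rose, 1 fell and 2 did not pass. A rise was found in 29.5% of all genes tested and a fall in 28.4%. None passed both thresholds, against 21.5% of all genes tested. PARP14, the most abundant, rose 1.47-fold (log2 fold change 0.56, standard error 0.052, edgeR adjusted p = 5.04e-05), a change of about the size of that of TIPARP. PARP12 had a log2 fold change of −0.63 (standard error 0.082, edgeR adjusted p = 0.000283). PARP9 and ZC3HAV1 rose by 0.43 and 0.37 on the log2 scale, and neither passed with scaling by the total count, nor did ZC3HAV1 without any single siControl library or without siPVT1 replicate 2.

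**Figure D4:**
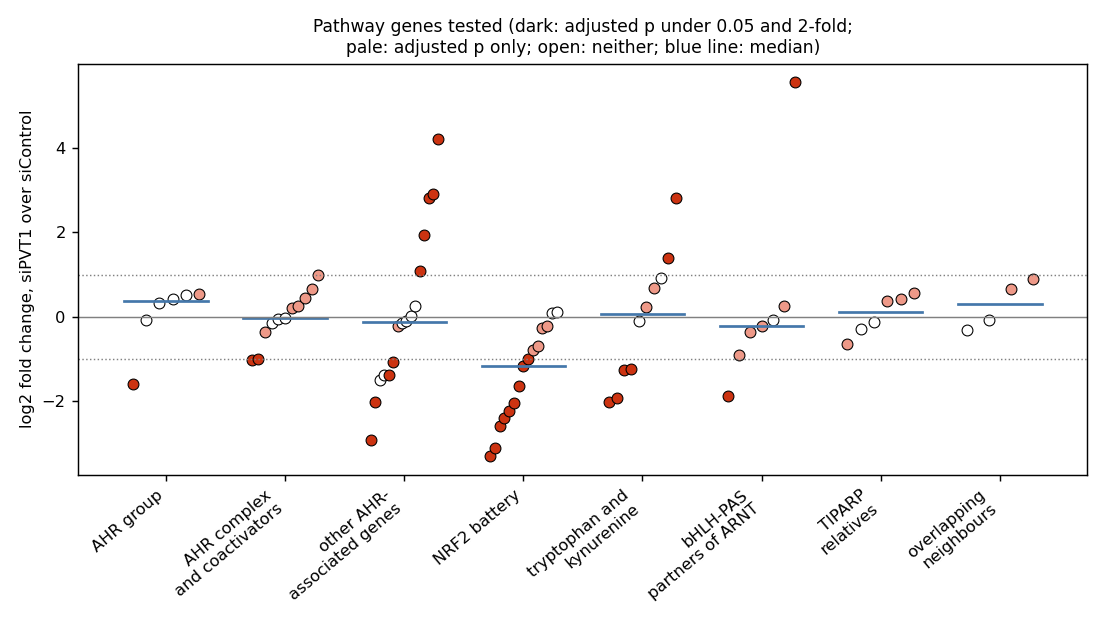
Log2 fold change of siPVT1 over siControl for each tested gene of the 6 and of the 7 lists around them, with the median of each list as a blue line. Dark points passed an adjusted p under 0.05 and 2-fold, pale points the adjusted p alone and open points neither. The NRF2 battery, listed with NFE2L2 and KEAP1, has a median of −1.17 and 13 of its 15 genes lower, where 28.4% of all genes tested fell. The other lists hold genes on either side of 0 and medians between −0.22 and 0.38.

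For each of the 6 genes, the nearest patterns among all tested genes were sought by the root mean square difference of centred log2 normalized counts over the 6 libraries. TIPARP was nearest to BRWD1 (difference 0.0067 log2 units), a bromodomain protein gene, and to MSN (0.017), which encodes the membrane-cytoskeleton linker moesin. NQO1 was nearest to GLIPR1 (0.031) and to GEMIN5 (0.042), a gene of the SMN complex, with log2 fold changes of −1.63 and −1.60. AHR was nearest to the transcription factor gene SOX13 (0.048) and to SLC16A4 (0.049). CYP1B1 was nearest to AC002056.1 (0.080) and AC069218.1 (0.10), AHRR to AL627171.1 (0.061) and AC239804.1 (0.17), and CYP1A1 to AL357079.3 (0.13) and TSPOAP1 (0.14). The 6 points of each pattern share libraries and fall into 2 groups, so such likeness was a description only.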

How the data were processed

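The authors made mRNA libraries from SK-OV3 cells with a KAPA mRNA HyperPrep kit, aligned single-end reads with STAR 2.7.3a to a GENCODE transcriptome (GRCh38.p13) and counted them with Salmon 0.14.1, with versions from the submitters' processing notes. The authors deposited estimated counts, already rounded, with 1 row per symbol and not normalized. Salmon divides reads between similar transcripts, and its strand setting is not given in the sources used here, so counts of overlapping genes are uncertain. The labels do not say whether replicates were separate cultures, and p-values measure the spread between libraries.

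Genes were kept where 3 or more libraries held 5 or more normalized counts, which left 19008. The quasi-likelihood test of edgeR 4.0.16 in R 4.3.3, after TMM scaling, had siRNA as its only term. Normalized counts are counts scaled to the mean effective library size. The size of a log2 fold change divided by the root of its F gave the standard error. The steps were tested on simulated data. Coordinates, exonic overlaps and transcript lengths came from GENCODE v44, a later release than the authors used for their counts, and promoters from RefSeq.

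The genes named are the 6 themselves, PVT1, genes of the lists (those past both thresholds, up to 4 a direction by size, and the most abundant), and the 2 nearest patterns per gene. Fold changes of overlapping neighbours and of some other list genes are also given. Members and lists were chosen with earlier results of these data known. Alternatives were a test against a 2-fold change, DESeq2 1.42.0, edgeR with the size factors of DESeq2 or with total-count scaling, filterByExpr or no filter, a block for replicate number, and leaving out each library. The sum of AHRR with PDCD6-AHRR was chosen after the counts were seen. One gene of the receptor complex list enters its counts and is not reported here by name.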

Additional observations from a re-analysis of the deposited data

How the results depend on the processing

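The fall of NQO1 and the rise of TIPARP kept their direction in every alternative run, and NQO1 passed the test in each. TIPARP (log2 fold change 0.53) did not pass edgeR's test against a 2-fold change (adjusted p = 1). That test left 1976 genes in place of 4081, 0 in place of 2 in the receptor complex and 1 in place of 2 among the bHLH-PAS genes, where DESeq2 and filterByExpr also left 1. AHR passed the test without a filter on low counts (0.34, edgeR adjusted p = 0.0263). AHRR turned to −0.089 when summed with PDCD6-AHRR.

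With 1 library left out at a time, log2 fold changes ranged from 0.17 to 0.47 for AHR, from −0.00084 to 0.87 for AHRR, from −0.54 to 0.22 for CYP1A1, from 0.20 to 0.65 for CYP1B1, from 0.49 to 0.55 for TIPARP and from −1.73 to −1.51 for NQO1. AHR passed only without siPVT1 replicate 3. Counts past both thresholds ranged from 3507 to 4239 over all genes, from 0 to 3 for the receptor complex, from 1 to 3 for the bHLH-PAS genes and from 0 to 1 for the overlapping neighbours. The cause was not tested.

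Scaling by the total count turned the share of higher genes among those past both thresholds from 55.1% to 43.8%. CYP1A1 had no value with filterByExpr. Same-numbered libraries of the groups did not deviate together (correlations −0.041 to 0.038 over genes), and libraries of differing number had −0.054 to 0.061. With 3 libraries in each group, such values cannot decide whether the numbers mark paired cultures. The replicate block gave 3924 genes and changed the call of none of the 6. AHRR and CYP1A1 are limited by depth, at 3 to 13 counts per library.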

Other observations

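GSTA1, a glutathione transferase of liver that is among the genes reported to respond to AHR ligands, had counts of 10, 74 and 2 for replicates 1 to 3 of siControl, then 6, 21 and 1 for those of siPVT1, and did not pass the test. It was named after its values were seen.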
